A study of Xenopus laevis with 5 samples.

Results

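Hox, Cdx, Meis, Pbx, Gbx and Engrailed genes were followed in explants of Xenopus laevis ectoderm in which an injected, hormone-inducible zic1 had been activated. The members are all gene copies whose single platform symbol begins with hoxa, hoxb, hoxc, hoxd, cdx, meis, pbx or gbx, or is en1 or en2, and they number 33 of 7530 gene copies, read by 44 of 15490 probe sets. They comprise 21 Hox, 2 Cdx, 4 Meis, 1 Pbx, 2 Gbx and 3 Engrailed copies. This frog is allotetraploid and has many genes in paired copies, written .L and .S or, in older symbols, -a and -b. For 3 members (en1-b, hoxb9 and hoxd9) the gene identifier did not match the gene table used. Other copies of these families were not analysed here.

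RNA was measured on 5 Affymetrix arrays, 2 from zic1 explants and 3 from beta globin control explants. Embryos of 2 cells were injected with the inducible zic1 or with beta globin, and both groups also received noggin, which blocks BMP signals and makes ectoderm neural. Dissection was at stage 9, and explants were cultured to the age of stage 12. All explants of both groups then received cycloheximide, which stops protein synthesis, and after 30 min dexamethasone, a hormone that makes the inducible zic1 active, and were collected 3 h later. The comparison therefore asks which transcripts changed on zic1 activation without new protein. It has no arm without dexamethasone, so zic1 activity before the hormone was not measured separately. The labels call the arrays biological replicates but name no embryos or batches, so p-values here reflect array-to-array spread, which may be partly technical.

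Hox genes encode homeodomain transcription factors that give cells their position along the head to tail axis, and their paralog group number follows their order in the clusters, from hindbrain (low numbers) to tail (high numbers). Cdx proteins switch on trunk and tail Hox genes, and Meis and Pbx proteins bind DNA together with Hox proteins. Gbx2 acts on the hindbrain side of the midbrain-hindbrain boundary, and Engrailed genes act at that boundary. Neural tissue made with noggin alone is known to have mainly forebrain character, and posterior genes need retinoic acid, Wnt or FGF signals. Zic1, a zinc-finger factor of the neural plate, is known in the frog for roles at the neural plate border.

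Each deposited value was read as a ratio of a probe set's signal to its own median over the 5 arrays. This was inferred, since every complete row had a median of exactly 1 and no source used here states it. On that reading, 1 is the middle array of each probe set. The signal itself was not kept. A ratio near 1 on all arrays therefore does not tell a steady transcript from one that was not detected, and no gene was set against another for level. The probe sets of zic1.S itself averaged 2.98 and 2.99 with zic1 and 1, 0.936 and 0.755 in control explants. Zic1.S was thus higher by 1.74 ± 0.14 on the log2 scale (SE; n = 2 and 3, limma adjusted p = 0.00994). Its signal may come from the injection, from the embryo's own gene or from both. Zic1 array 1 and controls 1 and 2 shared exactly equal values at 788 to 944 probe sets per pair, against 35 to 73 for every other pair of arrays. The labels give no reason for this, and differences within these 3 arrays and within the remaining 2 are given below for the larger members.

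No Hox, Cdx, Meis, Pbx, Gbx or Engrailed copy was called higher or lower with zic1, and the largest differences, none of them past the threshold, were in cdx1.S (0.60 on the log2 scale), hoxd13.S (0.55), hoxd10.L (0.38) and both copies of meis3 (0.33 and 0.32). None of the 33 member copies passed an adjusted p of 0.05, and the smallest was 0.126 for cdx1.S (limma, Benjamini-Hochberg adjustment over all gene copies), where 1.93% of all gene copies passed. Of the 44 member probe sets 0 passed as well, against 1.41% of all probe sets, and the smallest adjusted p was 0.0911. At an unadjusted p under 0.05 there were 5 members (cdx1.S, hoxd13.S, meis3.L, hoxd10.L and hoxa3.S), 15.2% of them, against 22.7% of all gene copies, and 7 probe sets, 15.9%, against 20.9% of all probe sets. The looser count took gene copies whose means were 1.5-fold or more apart, whose groups did not overlap and whose unadjusted p was under 0.05. It held 1 member, cdx1.S, or 3.03% of members against 7.21% of all gene copies, and 1 probe set, or 2.27%, against 7.28% of all probe sets. Fewer cells of a type and less RNA per cell cannot be told apart in such bulk samples.

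The arrays did bound most of the differences. For 32 of 33 members the 95% interval of the difference lay within 2-fold in either direction, against 91% of all gene copies, and the exception was cdx1.S, whose interval ran from 1.12-fold to 2.05-fold. For 25 members it lay within 1.5-fold, against 67.2% of all gene copies. These intervals hold for 1 gene at a time. A narrow interval does not tell a steady transcript from one that was not detected. With each array left out in turn, between 29 and 33 members stayed within 2-fold, a count added after the values were seen. The median log2 difference over the members was 0.02, zic1 minus control, beside -0.03 over all gene copies, and it was -0.01 without control 2 and 0.08 without control 3. By their means 20 members, 60.6% of them, were higher in zic1 and 13 lower, where 43.9% of all gene copies were higher. In 27 of 33, or 81.8%, the log2 difference was under 0.25 in size, against 67.4% of all gene copies.

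**Figure D1:**
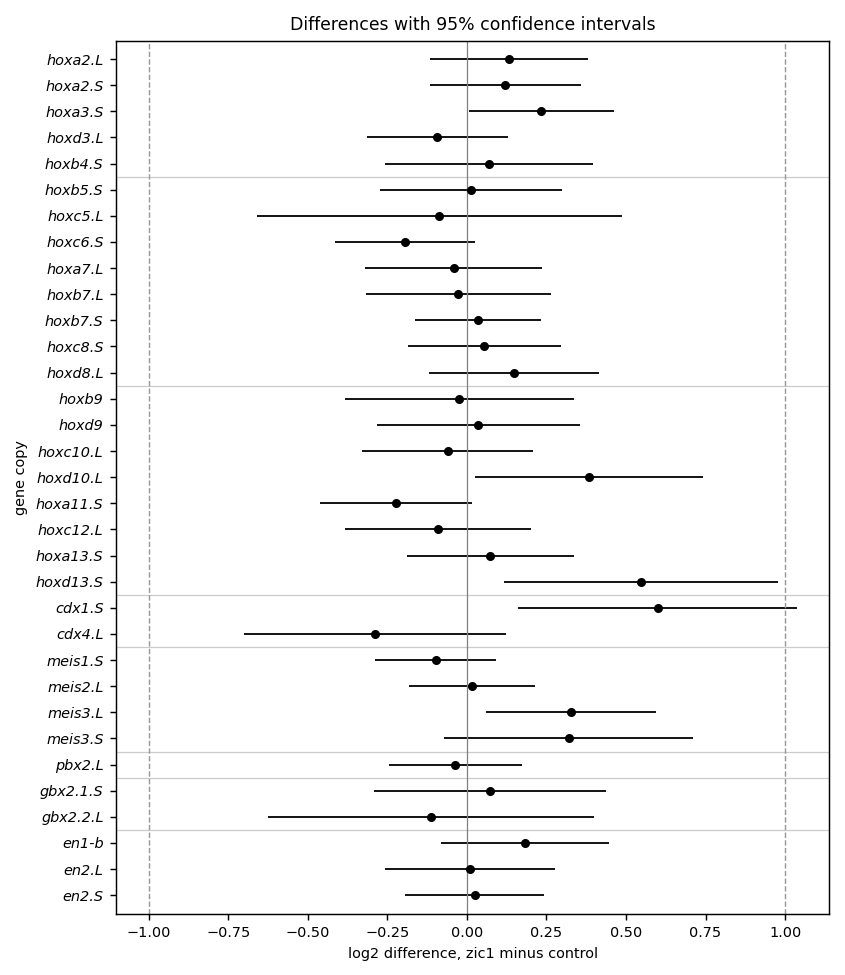
Log2 difference between zic1 and control explants (horizontal axis) for each of the 33 gene copies, ordered by family and Hox paralog group. Points are fitted differences, bars are 95% confidence intervals from limma, and dashed lines mark a 2-fold difference; the bar of cdx1.S alone crosses one.

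Hox genes of paralog groups 1 to 4 pattern the hindbrain. The array read 5 copies, with a median log2 difference of 0.12 and a range from -0.09 to 0.23. Hoxa3.S, of a paralog group that patterns the posterior hindbrain and pharyngeal arches, read 1.06 and 1.16 with zic1 and 1, 0.904 and 0.925 in control explants. The groups did not overlap, and the difference was 0.23 ± 0.09 (SE; limma adjusted p = 0.208), which did not pass.

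Hoxa2, which sets the identity of the second pharyngeal arch and acts in the anterior hindbrain, was read in both copies. Hoxa2.L read 1.10 and 1 with zic1 and 0.888, 1.03 and 0.957 in control explants. Hoxa2.S read 1 and 1.16 with zic1 and 0.97, 1 and 1.01 in control explants. In each copy 1 zic1 array lay above the controls and the other among them, and it was not the same array. The differences were 0.13 ± 0.10 and 0.12 ± 0.10 (SE; limma adjusted p = 0.489 and 0.503). A further probe set assigned to both hoxa2 copies, and so outside the members, differed by 0.07 (limma adjusted p = 0.670). Hoxd3.L read 0.905 and 1 with zic1 and 0.983, 1 and 1.06 in control explants, a difference of -0.09, and hoxb4.S, of the posterior hindbrain, differed by 0.07, both with overlapping groups.

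Of the middle paralog groups 5 to 8, which pattern the neck and trunk, 8 copies were read, with a median log2 difference of -0.01 and a range from -0.19 to 0.15. Hoxc6.S, a gene of the anterior trunk and spinal cord, read 0.924 and 0.945 with zic1 and 1.03, 1.15 and 1.03 in control explants. Both zic1 arrays lay below all controls, and the difference was -0.19 ± 0.09 (SE; limma adjusted p = 0.268). Its probe sets differed by -0.28 and -0.11, and in each of them the groups overlapped. Only their mean had separate groups. Hoxd8.L read 1.01 and 1.08 with zic1 and 0.895, 0.890 and 1.05 in control explants, so that control 3 lay between the zic1 arrays. Its difference was 0.15 ± 0.11 (SE; limma adjusted p = 0.470), with 0.28 in one probe set and 0.01 in the other.

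The rest of the middle genes overlapped between groups. Their log2 differences ran from -0.09 in hoxc5.L to 0.06 in hoxc8.S, with hoxb5.S at 0.01, hoxa7.L at -0.04, hoxb7.L at -0.03 and hoxb7.S at 0.04. Single controls moved further than the groups did. Hoxc5.L read 1.43 in control 3 and 0.829 in control 1, with both zic1 arrays near the middle at 0.989 and 1.01, and its 95% interval for the log2 difference ran from -0.66 to 0.49.

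The posterior paralog groups 9 to 13, which act from the trunk to the tail, were read in 8 copies. Their median log2 difference was 0.01, with the widest range of the 3 Hox classes, from -0.22 to 0.55. Hoxd13.S, of the last paralog group, which patterns the tail end and the tips of limbs, read 1.10 and 1.30 with zic1 and 0.787, 0.701 and 1 in control explants. Both zic1 arrays were above all controls, and control 3 was nearer to them than to the other controls. The difference of 0.55 ± 0.17 (SE; limma adjusted p = 0.145), a fold of 1.46 with a 95% interval from 1.08 to 1.97, did not pass. It was 0.57 within the 3 arrays that shared equal values and 0.38 within the remaining pair.

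Hoxd10.L, of the lumbar region, had control 3 nearest to the zic1 arrays as well, with 1.21 and 1.04 with zic1 and 0.829, 0.765 and 1 in control explants. Its difference of 0.38 ± 0.14 (SE; limma adjusted p = 0.193) was 0.61 within the 3 arrays that shared equal values and 0.05 in the remaining pair. Hoxa11.S, a gene of the limb's middle segment and the posterior trunk, lay the other way. It read 0.930 and 0.899 with zic1 and 1.17, 1.04 and 1.00 in control explants, a difference of -0.22 ± 0.10 (SE; limma adjusted p = 0.243). All 4 of its probe sets pointed down, from -0.37 to -0.12, with none past the threshold.

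Hoxb9, a common marker of spinal cord in frog explants, differed by -0.02, with a 95% interval of the log2 difference from -0.38 to 0.34. It read 1.02 and 0.932 with zic1 and 1, 0.851 and 1.15 in control explants. The controls thus spanned both zic1 arrays. Hoxd9 (0.04), hoxc10.L (-0.06), hoxc12.L (-0.09) and hoxa13.S (0.07) overlapped between groups as well. The widest of their single values was 1.22 for hoxc12.L in control 1. Across the 21 Hox copies, which stand for 12 paralog groups, Spearman's rho between paralog number and log2 difference was -0.02, a description over genes that share arrays. By cluster, the median log2 difference was 0.10 over 6 HoxA copies, 0.01 over 5 HoxB, -0.09 over 5 HoxC and 0.15 over 5 HoxD copies.

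**Figure D2:**
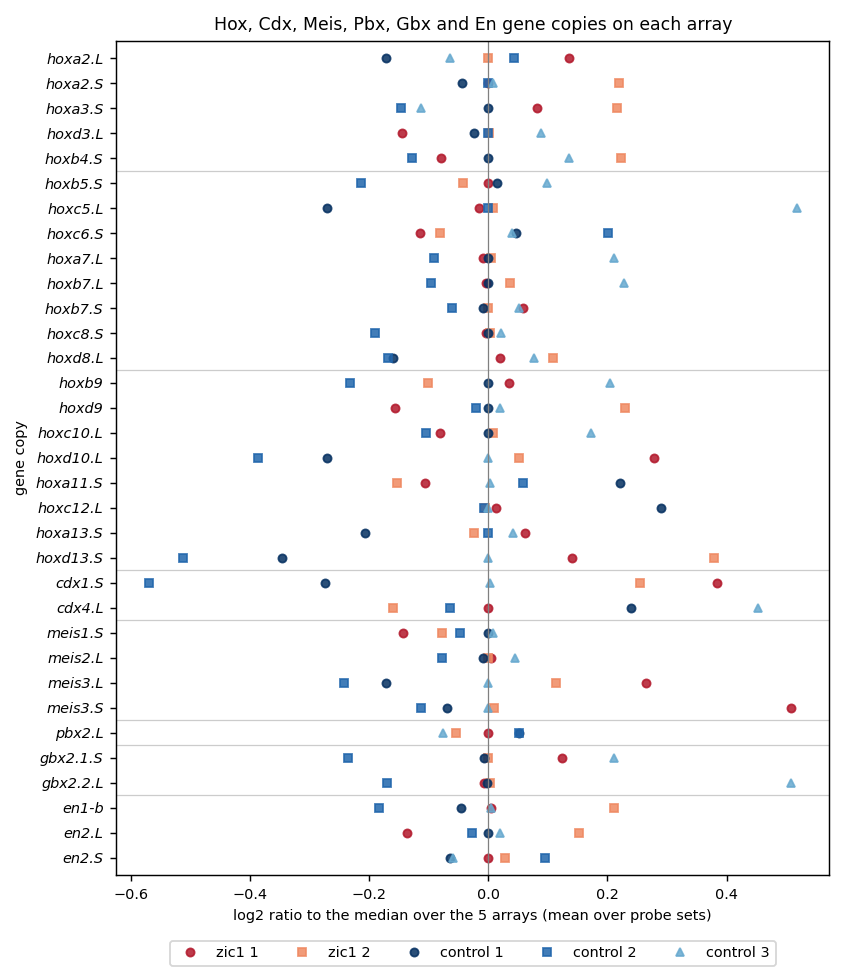
Log2 ratio of each gene copy on each of the 5 arrays (horizontal axis, 0 is the median over the arrays, mean over probe sets of a copy); rows are the 33 copies ordered by family and Hox paralog group, red points are zic1 arrays and blue points control arrays. Red and blue points overlap in most rows, and control 2 is the lowest point in 20 of them.

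Cdx genes gave the largest difference among the members. Cdx1.S read 1.30 and 1.19 with zic1 and 0.827, 0.674 and 1.00 in control explants as the mean of its 2 probe sets, a log2 difference of 0.60 ± 0.18 (SE; limma adjusted p = 0.126). The zic1 arrays lay above all controls, and the controls themselves spanned 0.57 on the log2 scale. Its 2 probe sets disagreed, with a gap of 0.82 that was the widest of the 9 members read more than once. Its more strongly differing probe set read 1.64 and 1.42 against 0.719, 0.61 and 1, a difference of 1.01 ± 0.22 (SE; limma adjusted p = 0.0911 over all probe sets). The other read 1.04 and 1 against 0.952, 0.744 and 1.00, a difference of 0.19 ± 0.15 (SE; limma adjusted p = 0.524). Only the first had separate groups, and the gene has no single size of change here. Within the 3 arrays that shared equal values cdx1.S differed by 0.81, and within the remaining pair by 0.25. With array weights cdx1.S passed (limma adjusted p = 0.0490, difference 0.66), as did its first probe set (0.0327). No other member copy passed with weights, and 7.77% of all gene copies did, against 1.93% without weights.

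Cdx4.L, the other caudal gene read here, pointed down, with 1 and 0.895 with zic1 and 1.18, 0.956 and 1.37 in control explants. Control 2 lay between the zic1 arrays. The log2 difference was -0.29 ± 0.17 (SE; limma adjusted p = 0.363), with a 95% interval from -0.70 to 0.12. It was -0.09 within the 3 arrays that shared equal values and -0.61 within the remaining pair. The cdx4.L difference was -0.17 without control 3 and -0.43 without control 2. The 2 caudal genes therefore had opposite signs, without either passing.

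**Figure D3:**
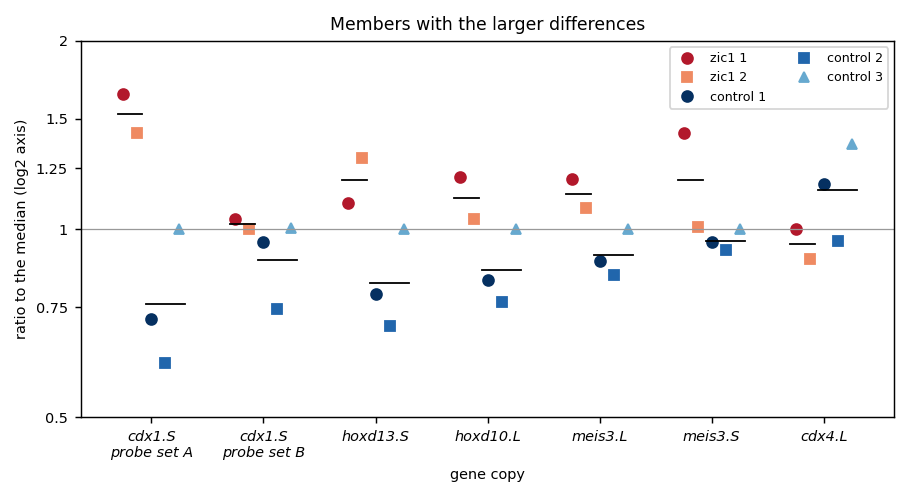
Ratio to the median over the 5 arrays (vertical log2 axis) on each array for the 6 gene copies with the largest log2 differences; cdx1.S is shown by its probe sets, A being the one with the larger difference. Bars are geometric means of the 2 zic1 and 3 control arrays; probe set A runs from 0.61 to 1.64, while for meis3.S only zic1 array 1, at 1.42, stands clear of the rest.

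Among the cofactors, meis3 showed the largest differences. In the frog, Meis3 is known for turning neural tissue toward hindbrain fates. Meis3.L read 1.20 and 1.08 with zic1 and 0.888, 0.846 and 1 in control explants, a log2 difference of 0.33 ± 0.11 (SE; limma adjusted p = 0.153). Meis3.S read 1.42 and 1.01 with zic1 and 0.953, 0.925 and 1 in control explants, a difference of 0.32 ± 0.16 (SE; limma adjusted p = 0.301). Both copies thus differed by nearly the same amount with groups that did not overlap, and neither passed. For meis3.S that separation was narrow, since zic1 array 2 exceeded control 3 by 0.01 on the log2 scale. Without zic1 array 1 its difference was 0.07. Within the 3 arrays that shared equal values the differences were 0.47 for meis3.L and 0.60 for meis3.S, and within the remaining pair 0.11 and 0.01.

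Meis1.S, a Hox cofactor of many tissues, read 0.905 and 0.947 with zic1 and 1, 0.967 and 1.01 in control explants. The zic1 arrays were the lowest, by a narrow margin, and the difference of -0.10 ± 0.08 (SE; limma adjusted p = 0.501) came with -0.22 in one probe set and 0.03 in the other. Meis2.L differed by 0.02 and pbx2.L, a partner of both Hox and Meis proteins, by -0.04, with 95% intervals of the log2 difference from -0.18 to 0.21 and from -0.25 to 0.17. Neither interval reached 1.5-fold.

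At the midbrain-hindbrain boundary no member passed the threshold. En1-b read 1.00 and 1.16 with zic1 and 0.968, 0.880 and 1.00 in control explants, a difference of 0.18 ± 0.11 (SE; limma adjusted p = 0.366). Zic1 array 1 and control 3 were almost equal. En2.L and en2.S differed by 0.01 and 0.02, with 95% intervals of the log2 difference from -0.26 to 0.28 and from -0.19 to 0.24. On the hindbrain side, gbx2.2.L read 0.995 and 1.00 with zic1 and 0.999, 0.889 and 1.42 in control explants. Its difference of -0.11 ± 0.21 (SE; limma adjusted p = 0.793) was 0.08 without control 3. Gbx2.1.S differed by 0.07, and its lowest and highest arrays, 0.849 and 1.16, were both controls.

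In most members the range of the 3 controls was wider than the difference between the group means, at a share near that of all gene copies. A range and a difference of means are unlike measures, so the count is a description. In 24 of 33 members, 72.7% of them, the control range exceeded the difference between groups, against 66.3% of all gene copies. Control 2 was the lowest of the 5 arrays in 20 members, 60.6% of them, against 21.9% of all gene copies, and control 3 was the highest in 13, or 39.4%, against 25.6%. The median log2 ratio of the members was -0.09 in control 2 and between -0.0015 and 0.02 on the other arrays. These same arrays stood apart in the averages of some cell type markers. Cement gland markers, 5 copies, averaged 0.93 on the log2 scale in control 2 and between -0.33 and -0.07 elsewhere, and endoderm markers, 16 copies, averaged 0.58 in control 3 and between -0.24 and -0.05 elsewhere. Epidermis markers, 9 copies, averaged 0.37 in control 2, 0.23 in control 3 and between -0.38 and -0.003 elsewhere. Single copies departed from the averages, such as pitx1.L of the cement gland list, at a ratio of 0.987 in control 2. Among the endoderm markers, a2m.S read 0.816 in control 3. Of the epidermis list, grhl3.L read 0.926 in control 2 and krt70.S 0.966 in control 3. Whether other cell types had a part in the members' values was not tested. Groups that did not overlap were found in 10 members, 30.3% of them, against 42.1% of all gene copies, and in 13 of their probe sets, 29.5%, against 39.3% of all probe sets. With zic1 higher they were found in 7, or 21.2%, against 17.3%.

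For 4 genes both copies were read, and each pair differed by less than the standard error of either copy. The log2 differences were 0.13 and 0.12 for hoxa2.L and hoxa2.S, -0.03 and 0.04 for hoxb7.L and hoxb7.S, 0.33 and 0.32 for meis3.L and meis3.S, and 0.01 and 0.02 for en2.L and en2.S. With 27 of 33 members under 0.25 in size, such closeness is not read as agreement, and the hoxb7 copies had opposite signs. Whether paired copies share signal on these probes was not tested, so they are not counted as independent readings.

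The lists of retinoic acid, posterior Wnt and FGF, and hindbrain genes gave 1 or 2 calls each, where 1.93% of all gene copies passed. They mix genes of unlike roles, such as cyp26a1 and ncor1 beside aldh1a2, or otx2 beside egr2. Their medians therefore give no direction for posterior signals. Of the retinoic acid supply and receptor genes 1 of 17 copies passed, crabp2.L, a cytoplasmic carrier of retinoic acid, higher by 1.87 ± 0.13 on the log2 scale (SE; limma adjusted p = 0.00667), and the list's median was 0.10. Of the posterior Wnt and FGF genes 2 of 25 rose, the ligand wnt8a.L (1.04 ± 0.08, SE; limma adjusted p = 0.0120) and the receptor fgfr1.L (0.98 ± 0.15, SE; 0.0462), with a median of 0.13. Among 17 hindbrain and midbrain-hindbrain regulators 1 passed, and the median was 0.18. It was epha4.L, an ephrin receptor of hindbrain segments (1.01 ± 0.14, SE; limma adjusted p = 0.0383). All 4 calls in these lists were rises. In the hindbrain list 13 copies were higher by their means, or 76.5%, where 43.9% of all gene copies were higher. The other 4 were lower, among them irx1.L (-0.33) and egr2.L (-0.08).

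The other TALE homeobox genes and Hox regulators, 10 copies with a median of 0.16, held no call, and 3 had groups that did not overlap, where 42.1% of all gene copies had such groups. Those with the largest test statistics were both copies of tgif2, a TALE repressor. Tgif2.S read 1.80 and 1.55 with zic1 and 0.769, 0.711 and 1 in control explants, a log2 difference of 1.03 ± 0.17 (SE; limma adjusted p = 0.0534). Tgif2.L read 1.58 and 1.42 against 1, 0.748 and 0.841, a difference of 0.81 ± 0.14 (SE; limma adjusted p = 0.0596). Both exceeded every Hox, Meis or Pbx member in size. Of the Polycomb and Trithorax genes, which hold Hox clusters silent or active, 1 of 16 copies passed, and the median was -0.07. The call was scmh1.S, which fell by 1.47 ± 0.16 on the log2 scale (SE; limma adjusted p = 0.0271). The other copy, scmh1.L, differed by -0.07 (limma adjusted p = 0.802).

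Some markers of other cells moved with the groups. Of the posterior mesoderm markers, 5 of 13 copies rose and none fell past the threshold, with a median log2 difference of 0.85. They were the muscle factor myod1 in both copies (2.86 for myod1.S and 1.67 for myod1.L), vegt.L (2.49), wnt8a.L and evx1.L, a homeobox gene of the tail-forming mesoderm (1.01 ± 0.14, SE; limma adjusted p = 0.0391). The list was split. Among the copies that did not pass, wnt11b.L (1.36) and vegt.S (0.85) differed more than the rest. The rest were tbx6.L (0.26), tbxt.S (0.15), myf5.L (0.05), msgn1.L (0.01), fgf4.S (0.004) and fgf4.L (-0.06). The posterior mesoderm list averaged 0.69 and 0.84 on the log2 scale with zic1 and -0.20, -0.25 and 0.04 in control explants. Of the caudal genes, cdx1.S differed by 0.60, with 1.01 and 0.19 in its probe sets, and cdx4.L by -0.29. Whether posterior mesoderm had a part in either difference was not tested. Wnt8a.L also stands in the Wnt list. Of 11 neural plate marker copies 2 passed, zic1.S, a copy of the injected gene, and zic2.L (0.91). All 11 were higher by their means, from 0.09 in gmnn.S, with a median of 0.51, where 43.9% of all gene copies were higher. None of 7 dorsal mesoderm, 9 epidermis, 5 cement gland or 16 endoderm copies passed, and their medians were 0.29, -0.19, -0.25 and -0.15. The ratios keep no level, so the presence or absence of these cells could not be read from the markers. Beside these lists, 1.93% of all gene copies passed. These and the preceding lists were chosen with earlier results of these data known, so their counts of calls are descriptions only. With all 5 arrays limma called 145 gene copies. It called 0 without either zic1 array, 28 without control 1, 10 without control 2 and 220 without control 3.

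**Figure D4:**
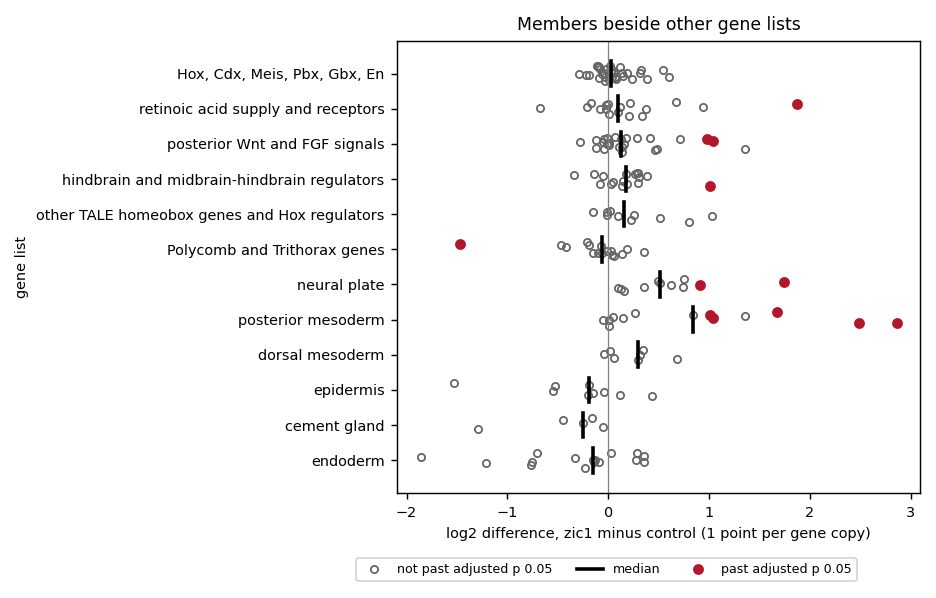
Log2 difference between zic1 and control explants (horizontal axis) for the 33 members and for 11 other gene lists, 1 point per gene copy; filled red points passed an adjusted p of 0.05 and black bars are medians. The members lie between -0.29 and 0.60 with none filled, while 5 of 13 posterior mesoderm points are filled. The lists were chosen with earlier results of these data known.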

How the data were processed

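RNA of 5 arrays was measured. Per the labels' protocols, cRNA was labelled with biotin from 2 µg of total RNA. GCOS and RMA are named in the submitters' processing notes, with neither role nor version. The authors deposited linear ratios. Every one of the 15571 complete rows had a median of exactly 1, and no source used here states that centring. After 81 control probe sets and 1 with missing values were left out, 15490 remained, of which 9303 had 1 symbol in the platform annotation, 195 several and 5992 none. Of 33 member copies, 30 had a gene identifier in the gene table (Xenopus laevis v10.1), used for names alone.

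Log2 ratios, without pseudocount, were averaged over the probe sets of each symbol and compared between the groups with limma 3.58.1 in R 4.3.3 (lmFit, eBayes; 3 residual and 2.59 prior degrees of freedom), with Benjamini-Hochberg adjustment over 7530 gene copies. A second fit ran over all probe sets. The script was tested on simulated data. Plots used matplotlib 3.10.9 in Python 3.11.15. Precision is limited by the number of arrays.

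The members and lists were chosen with earlier results of these data known. Every member is accounted for. Values on all arrays are given for the member of the looser count and for the 15 others with the largest differences. From the pathway lists, differences are given for the calls or, with none, for the 2 largest test statistics. Values of hoxb9 and single values of further members were added as descriptions. A filter on dim probe sets, a background correction and a slide block could not be run on ratios.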

Additional observations from a re-analysis of the deposited data

How the results depend on the processing

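Under the other settings tried, of 16 member copies followed singly only gbx2.2.L changed sign, to 0.0837 with the replicate block, and it lay between -0.25 and 0.0837 when arrays were dropped singly. The count of member copies past the threshold was 0 with all arrays, with each array left out, with both array sets as a block, and with quantile normalization, median centring, a robust prior, log2(value + 1), averaged copies, an adjusted p under 0.10 and without probe sets ending in _s_at or _x_at (limma; 5 at an unadjusted p under 0.05 with all arrays). Array weights gave 1 (cdx1.S) and 1 member probe set, and an adjusted p under 0.10 gave 1 member probe set. With the replicate block 4 copies (cdx1.S, hoxd13.S, hoxd10.L and meis3.L) and 5 probe sets passed, along with 1398 of all 7530 gene copies. That fit left 1 residual degree of freedom and, control 3 being alone with its number, does not use that array for the difference. The numbers are shared by 2 pairs only, and the labels do not say that equal numbers were paired. Differences between replicates 1 and 2 correlated between the groups at 0.38 over probe sets and 0.10 over members. With only 2 pairs, these correlations cannot decide whether the arrays were paired.

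The looser count of 1 became 0 at 2-fold, with log2(value + 1) (which shrinks differences by construction) and with the sets as a block, and 2 with array weights and in the fit with the replicate block; it was 0 to 2 when arrays were dropped singly. For all gene copies the 145 calls became 56 with the sets as a block, 585 with array weights, 613 at an adjusted p under 0.10 and 0 to 220 with single arrays left out; without zic1 array 1 or 2, limma called 0, with 713 and 1283 at an unadjusted p under 0.05. Where no cause is given, the cause was not tested.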
